A study of Saccharomyces cerevisiae with 13 samples.

Results

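The genes described here build, remodel and coat the cell wall of budding yeast. They were chosen by name, as 37 open reading frames given by identifier, from the 6205 genes on the array. Earlier results of these data were known when they were chosen. All 37 were measured and all 37 passed the filter on missing values. They comprise the glucan and chitin synthases with their partners, the transferases and glucanases that link and trim wall polymers, the proteins built into the wall, the SUN family and a mannosyltransferase. The cells were of the W303 background and are labelled yox1 yhp1; the labels do not say what kind of mutation either gene carries. Alpha factor, a mating pheromone, arrested the culture in G1, from which it was released into YEPD, a rich glucose medium, with samples at 0, 10, 20, 30, 40, 50, 60, 70, 80, 90, 100, 110 and 120 min, with 1 two-colour array for each of the 13 times. The labels call this span 2 cell cycles. Sample RNA carried Cy5 on every array, and Cy3 marked RNA of an unsynchronised wild-type culture grown overnight in YEPD, so each value is a log10 ratio of the sample to that reference. There are no replicates and no dye swap, and no synchronised wild-type course was used here.

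The yeast wall is a layered polymer. An inner mesh of beta-glucan with a little chitin carries the load, and an outer coat of heavily mannosylated proteins is attached to the glucan, either through the remnant of a lipid anchor or directly. A growing bud needs new wall throughout its growth, and the wall must be loosened locally by glucanases and transferases while synthases add new chains. Transcription of many wall genes is known to follow the cell cycle, through the G1 factor SBF, through factors of late mitosis and through the cell integrity pathway, and mating pheromone is known to change the wall as cells form a projection.

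Landmark genes placed the arrays in the cycle. A list of 22 measured G1/S genes, which held no wall gene of the set, fitted a period of 62 min best, and its mean peaked at 19.0 ± 1.20 min after release (SE of a curve through 13 arrays). Histone genes peaked at 29.0 ± 1.01 min and the mitotic CLB2 cluster at 47.4 ± 2.18 min. The M/G1 list peaked at 8.63 ± 3.20 min, with 3 of its 7 genes periodic, and is the weakest of these landmarks because its mean was -0.57 at 10 min and 0.19 at 70 min. The arrest was visible on the first array: the pheromone response list had a mean log10 ratio of 0.69 at 0 min, 0.04 at 10 min and between -0.17 and -0.05 afterwards. The a-specific genes moved likewise (0.56 at 0 min), while the mean of 4 alpha-specific genes stayed between -0.05 and 0.03 on all 13 arrays. Of the genes in the strain label, YHP1 (YDR451C) had 13 of 13 values below the reference, where 811 of the 6151 genes tested had all their values below it. YOX1 (YML027W) had 10 of 13 below it while oscillating from -0.53 to 0.12, so its transcript was not evenly lowered. Every statement about the strain rests on its label. All p-values below come from limma, are adjusted over all genes tested, and measure the scatter of arrays of 1 course around a curve rather than the spread between cultures.

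Most of these genes followed the cell cycle, with fitted peaks spread around it. A cosine and sine of the 62 min period passed the test (adjusted p under 0.05) in 21 of 37 wall genes, 56.8%, against 15.0% of the 6151 genes tested. The median fitted peak-to-trough ratio was 1.70-fold against 1.19-fold. Because the 37 genes were chosen with earlier results of these data known, their shares beside all genes, here and below, are descriptions. They do not test wall genes as a class. By the landmark nearest to the fitted peak, 4 of the 21 fell to the G1/S list (SVS1, CRH1, MNN1 and EXG1), 8 to the histone genes (CWP1, GAS1, SCW10, FKS1, UTR2, SRL1, EXG2 and SIM1), 6 to the CLB2 cluster (ECM33, GAS3, GAS5, SKN1, SCW4 and UTH1) and 3 to the M/G1 list (CHS1, PST1 and TIP1). Gaps to that landmark ran from 0.23 min (CHS1) to 8.84 min (TIP1). EXG1 was at -0.22 at 20 min, where the G1/S mean was highest (0.32). Its highest value was at 70 min (0.19), as was that of the M/G1 mean. At 0 min, where the M/G1 mean was -0.28, TIP1 was at its highest (0.27) and CHS1 was at 0.36. Each level is a mean over a culture, so fewer cells in a phase and less RNA per cell cannot be told apart. The mean of all 37 profiles varied little, between -0.01 and 0.07 from 20 to 120 min. The call held under every alternative run for 8 genes, GAS1, GAS3, CRH1, EXG2, SVS1, SRL1, UTH1 and MNN1, and was lost under at least 1 for the other 13; below, a gene is said to drop out where its adjusted p, in parentheses, rose past 0.05, and to pass where it fell below. The count was lower, at 11, when a second harmonic was fitted and 13, SED1 newly among them, at a period shortened by 5 min, where 3.45% and 7.40% of all genes passed; it was higher, at 29 and 27, with array weights and without the 0 and 10 min arrays together, where 25.3% and 14.7% passed.

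**Figure D1:**
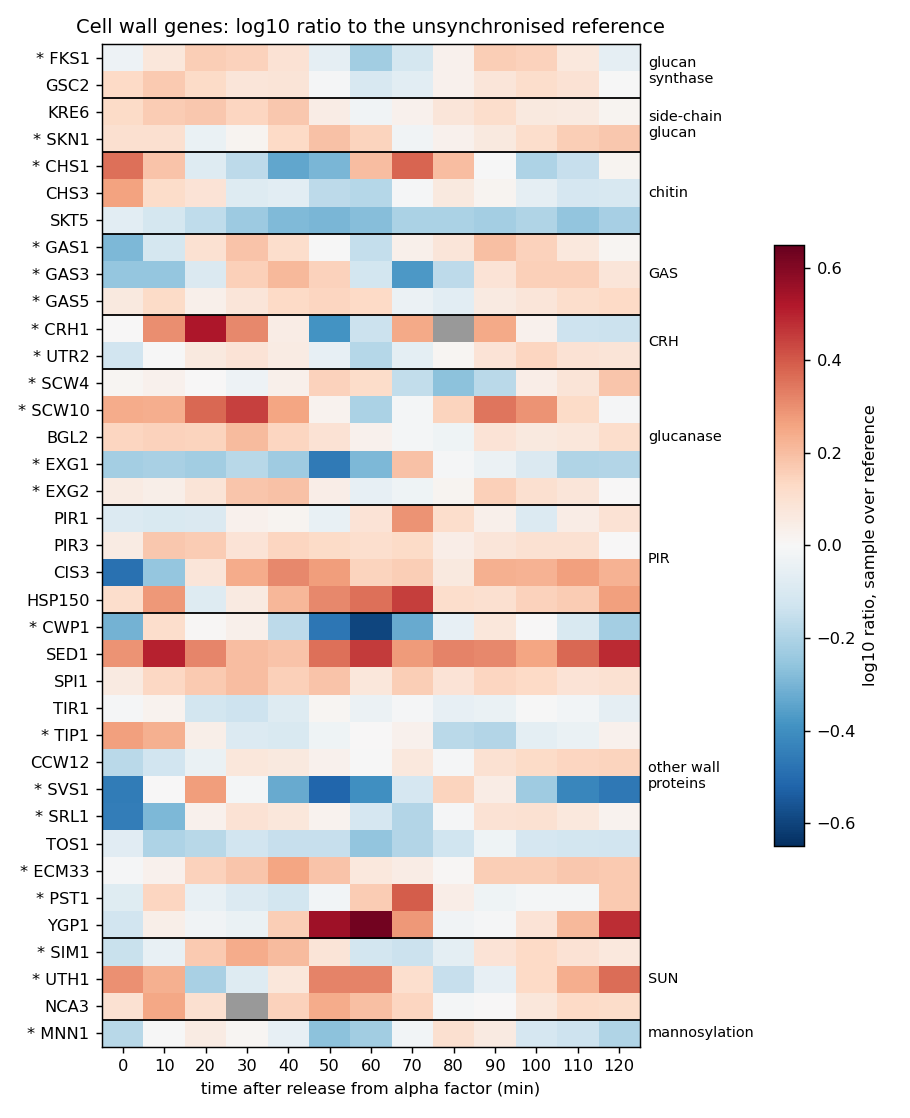
Log10 ratio of the 37 cell wall genes to the unsynchronised reference (colour) on each of the 13 arrays (columns, min after release), in blocks by role. An asterisk marks the 21 genes called periodic and grey a missing value. SVS1 and CRH1 are highest at 20 min, YGP1 and CWP1 reach 0.63 and -0.60 at 60 min, and CIS3 and SRL1 are lowest at 0 min.

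**Figure D2:**
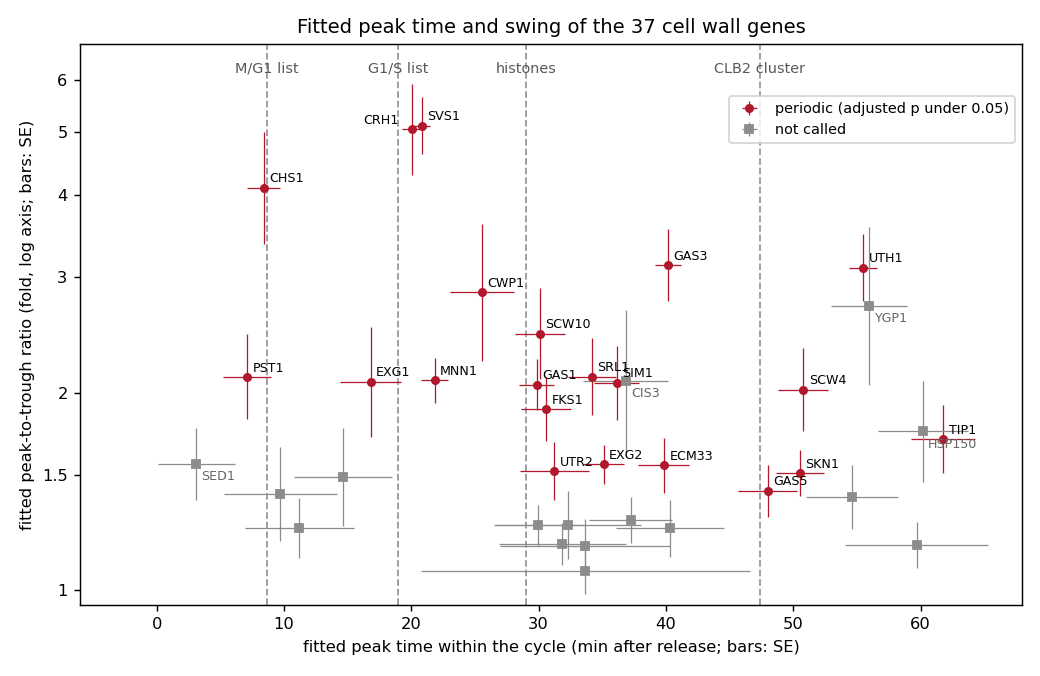
Fitted peak time (horizontal axis, min after release within a cycle of 62 min, bars are SE) and peak-to-trough ratio (vertical log axis, fold, bars are SE) of each wall gene; the time axis is circular, so TIP1 at its right end lies close to the M/G1 line at its left. Red circles are the 21 periodic genes, grey squares the other 16, and dashed lines the peaks of the landmark lists. SVS1 and CRH1 have the widest swings, and the densest group of periodic genes lies between 25.6 and 36.1 min.

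The catalytic subunits of beta-glucan synthase are encoded by FKS1, used in growing cells, and GSC2, known for its use under stress and in sporulation. FKS1 (YLR342W) was periodic, with a swing of 1.89-fold and a peak at 30.6 ± 1.95 min (adjusted p = 0.00770). Its log10 ratio was highest at 20 min (0.16) and 90 min (0.16) and lowest at 60 min (-0.23). FKS1 dropped out when a second harmonic was fitted (0.0698) and at a period shortened by 5 min (0.0649). GSC2 (YGR032W) showed a swing of 1.26-fold (adjusted p = 0.355) with values from -0.10 at 60 min to 0.17 at 10 min. The pair correlated with r = 0.803 over the 13 arrays, a description only, since arrays of 1 course are not independent. GSC2 passed the cycle test without the 0 and 10 min arrays together (adjusted p = 0.0190, 1.53-fold), and whether the 2 genes differ in swing was not tested. Spots of paralogs of near-identical sequence can take up each other's RNA, and no value here separates them.

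KRE6 and SKN1 encode related membrane proteins needed for the branching beta-glucan that ties mannoproteins to the mesh. SKN1 (YGR143W) was periodic, 1.51-fold, with its peak in the mitotic part of the cycle at 50.5 ± 1.87 min (adjusted p = 0.0127). It was lowest at 20 min (-0.04), reached 0.19 at 50 min, was -0.02 at 70 min and 0.17 at 120 min. SKN1 dropped out when a second harmonic was fitted (0.118) and without the 50 min array (0.0508). KRE6 (YPR159W) showed a swing of 1.26-fold that did not pass (adjusted p = 0.0938), though it did with array weights (0.0398) and at a period lengthened by 5 min (0.0494). KRE6 was at 0.18 at 20 min and -0.02 at 60 min, where SKN1 was at -0.04 and 0.14. Both genes were above the reference at 0, 10 and 40 min, and the pair had r = -0.384 over the 13 arrays. Whether their peak times differ was not tested.

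Chitin is made by several synthases. CHS1 encodes the enzyme that repairs the wall as daughter cells separate, CHS3 the enzyme of the bud-neck ring and of most wall chitin, and SKT5 its activator. CHS1 (YNL192W) had the third widest swing of the set, 4.10-fold, peaking at 8.40 ± 1.30 min (adjusted p = 0.00171). From 0 to 120 min its log10 ratios were 0.36, 0.19, -0.08, -0.17, -0.34, -0.30, 0.20, 0.38, 0.20, -0.0036, -0.20, -0.15 and 0.02. The high values thus fell at 0 to 10 min and at 60 to 80 min, and the low ones at 40 to 50 min. The M/G1 list mean was highest at 70 min (0.19), but it was -0.28 at 0 min and -0.57 at 10 min, where CHS1 was high. CHS1 dropped out at a period shortened by 5 min (0.0544). CHS3 (YBR023C) and SKT5 (YBL061C) did not pass (1.49-fold, adjusted p = 0.246, and 1.24-fold, adjusted p = 0.301), but their profiles ran together (r = 0.913 over 13 arrays) and both were highest in the arrest, as given with the arrest results. CHS3 passed the cycle test with array weights (0.0439), without the 0 and 10 min arrays together (0.00609) and without the 0 min array (0.0162).

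The GAS proteins are anchored enzymes that cut and rejoin glucan chains, and the 3 of them in the set, GAS1, GAS3 and GAS5, passed the test; GAS2 and GAS4, measured but outside the set, did not (adjusted p = 0.223 and 0.0955). GAS1 (YMR307W) swung 2.06-fold peaking at 29.8 ± 1.39 min (adjusted p = 0.000865), being highest at 90 min (0.20) and 30 min (0.19). GAS3 (YMR215W) swung 3.13-fold and peaked at 40.1 ± 1.02 min (adjusted p = 0.000371). In order of time, the log10 ratios of GAS3 were -0.25, -0.25, -0.09, 0.15, 0.21, 0.15, -0.12, -0.37, -0.17, 0.09, 0.16, 0.16 and 0.08. Its troughs came at 0 to 10 min and at 70 min, and its fitted peak came after that of GAS1, a difference that was not tested. GAS5 (YOL030W) had a smaller swing of 1.42-fold peaking at 48.0 ± 2.32 min (adjusted p = 0.0446), and its lowest values were at 70 min (-0.04) and 80 min (-0.07). GAS5 dropped out when a second harmonic was fitted (0.238), at a 60 min period (0.0598), at a period shortened by 5 min (0.116), without linear time (0.0711) and without the 20, 30, 40, 50, 60, 70, 80, 90, 100 or 110 min array (from 0.0544 to 0.163).

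CRH1 and UTR2 encode transferases that join chitin to glucan. CRH1 (YGR189C) was one of the steepest profiles, 5.04-fold peaking at 20.1 ± 0.829 min (adjusted p = 0.000157). Its log10 ratio went from 0.0012 at 0 min through 0.30 at 10 min to 0.52 at 20 min and 0.31 at 30 min, then to 0.05 at 40 min, -0.39 at 50 min and -0.14 at 60 min. In the second cycle it was 0.25 at 70 min, missing at 80 min, 0.25 at 90 min, 0.03 at 100 min and -0.14 and -0.14 at the last 2 times. Its span was 0.914 log10 units over 10 to 60 min and 0.389 over 70 to 120 min, and the missing 80 min value falls 60 min after its highest one, so its fit rests on 12 arrays. UTR2 (YEL040W) swung 1.52-fold peaking at 31.2 ± 2.70 min (adjusted p = 0.0359), later than that of CRH1; the difference was not tested. UTR2 dropped out when a second harmonic was fitted (0.209), at a 60 min period (0.0678), at a period shortened by 5 min (0.158) and without the 0, 20, 30, 40, 50, 60, 70 or 100 min array (from 0.0564 to 0.0949).

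Among the 5 glucanase genes, SCW4 and SCW10 encode related soluble wall proteins and had different fitted peak times, a difference that was not tested. SCW10 (YMR305C) swung 2.46-fold and peaked at 30.1 ± 1.97 min (adjusted p = 0.00775). The 13 values of SCW10, as log10 ratios by time, were 0.24, 0.24, 0.37, 0.44, 0.26, 0.02, -0.21, -0.01, 0.15, 0.35, 0.29, 0.12 and -0.01. SCW4 (YGR279C) swung 2.02-fold and peaked at 50.8 ± 1.97 min (adjusted p = 0.0155), with 0.15 at 50 min, -0.27 at 80 min and 0.18 at 120 min. At 60 and 120 min SCW4 was above the reference and SCW10 below it, and at 90 min the reverse held; the fitted peaks were 20.7 min apart and r was -0.329 over 13 arrays. SCW10 dropped out when a second harmonic was fitted (0.0738). SCW4 dropped out when a second harmonic was fitted (0.117), at a period shortened by 5 min (0.0574) and without the 80 min array (0.0580).

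EXG1, the main secreted exoglucanase, and EXG2, its membrane-anchored relative, also had different fitted peak times, a difference that was not tested. EXG2 (YDR261C) swung 1.56-fold peaking at 35.1 ± 1.60 min (adjusted p = 0.00338). EXG1 (YLR300W) was at the edge of the threshold, 2.08-fold with a fitted peak at 16.8 ± 2.38 min (adjusted p = 0.0497). It was above the reference on 1 of 13 arrays, at 70 min (0.19), against -0.21 at 10 min and -0.46 at 50 min. From 0 to 40 min EXG1 lay between -0.23 and -0.18, with no crest near the fitted peak. EXG1 dropped out without centring (0.05001), with limit values kept (0.0546), with robust empirical Bayes (0.0686), at a 60 min period (0.0724), at a period shortened by 5 min (0.149), without linear time (0.217) and without the 10, 30, 40, 50, 60, 80, 90, 100, 110 or 120 min array (from 0.0515 to 0.171). BGL2 (YGR282C), the most abundant glucan-remodelling protein of the wall, had values from -0.03 to 0.21 and did not pass (1.24-fold, adjusted p = 0.279), though it passed without the 120 min array (0.0470).

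**Figure D3:**
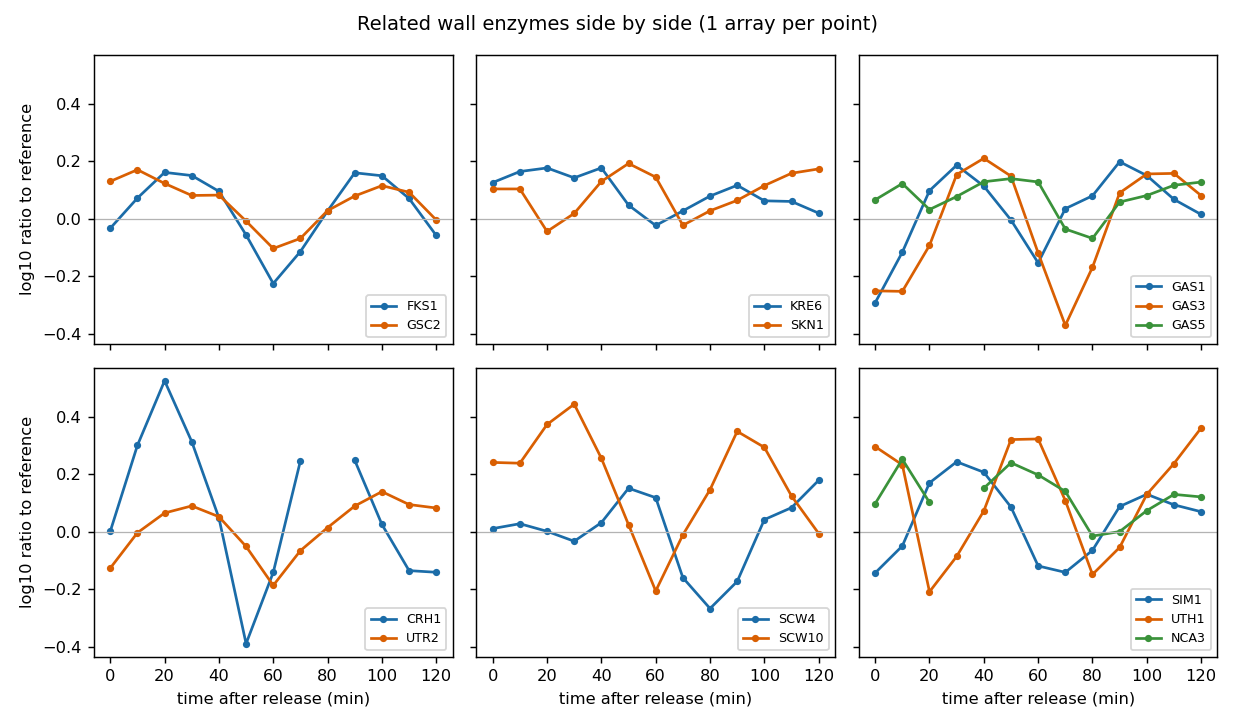
Log10 ratio to the reference (vertical axis) against time after release (horizontal axis, min) for 6 sets of related wall genes, 1 array per point, each gene relative to its own reference signal. SCW10 is above the reference and SCW4 below it at 90 min, UTH1 is above it and SIM1 below it at 70 min, GAS3 lags GAS1, and CRH1 has no value at 80 min and NCA3 none at 30 min.

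The 4 PIR genes encode proteins with internal repeats that are bound directly to glucan, and limma called none periodic (15.0% of all genes were, and 2 of the 4 passed at an unadjusted p under 0.05). PIR1 (YKL164C) and PIR3 (YKL163W) are neighbours, with no annotated gene between them, as are CIS3 (YJL158C) and HSP150 (YJL159W). PIR1 was highest at 70 min (0.29) and otherwise between -0.10 and 0.12 (adjusted p = 0.313). PIR3 stayed between 0.0013 and 0.17 (swing 1.07-fold, adjusted p = 0.804), the smallest swing of the set. HSP150 was above the reference on 12 of 13 arrays; from 0 to 120 min it read 0.11, 0.28, -0.08, 0.06, 0.22, 0.31, 0.36, 0.45, 0.12, 0.10, 0.15, 0.17 and 0.27. Its maxima were at 10 and 70 min and its fitted swing was 1.75-fold (adjusted p = 0.0979), which passed with array weights (0.0313), at a period lengthened by 5 min (0.0464), without the 0 and 10 min arrays together (0.0469) and without the 0 min array (0.0327). CIS3, whose values are given with the arrest because its lowest were the first 2, swung 2.09-fold (adjusted p = 0.116) and passed with array weights (0.0410), without the 0 and 10 min arrays together (0.0125) and without the 0 min array (0.0462). Within the neighbouring pairs r was -0.293 for PIR1 and PIR3 and 0.107 for CIS3 and HSP150 over 13 arrays.

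Of the 12 other wall proteins in the set, 6 were periodic, beside 15.0% of all genes tested. In the list of other wall proteins outside the set, 1 of 17 genes was periodic. SVS1 (YPL163C), a serine- and threonine-rich protein linked to vanadate resistance, had the widest swing of all 37, 5.11-fold, and the most precise peak, 20.8 ± 0.603 min (adjusted p = 6.47e-06). As log10 ratios in order of time, SVS1 had -0.45, 0.00059, 0.27, -0.01, -0.33, -0.52, -0.40, -0.11, 0.14, 0.05, -0.23, -0.42 and -0.46. Its crests at 20 and 80 min stood 0.27 and 0.14 above the reference level of 0, and it was below the reference on 9 of 13 arrays. CWP1 (YKL096W), a mannoprotein anchored through glucan, swung 2.85-fold and peaked at 25.6 ± 2.49 min (adjusted p = 0.0263). The values of CWP1 were -0.31, 0.12, 0.01, 0.03, -0.17, -0.47, -0.60, -0.33, -0.05, 0.08, 0.00045, -0.10 and -0.22, so its deepest trough, at 50 to 60 min, was not matched at 110 to 120 min (r = 0.145 between 10 to 60 and 70 to 120 min, 6 matching times). CWP1 dropped out with robust empirical Bayes (0.0519), when a second harmonic was fitted (0.162), at a 60 min period (0.0554), at a period shortened by 5 min (0.147) and without the 20, 30, 50, 60 or 90 min array (from 0.0548 to 0.0658).

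SRL1 (YOR247W), a mannoprotein, swung 2.11-fold peaking at 34.2 ± 1.88 min (adjusted p = 0.00797), and its values in order of time were -0.45, -0.29, 0.03, 0.09, 0.07, 0.02, -0.11, -0.19, -0.01, 0.09, 0.10, 0.07 and 0.02. It was lowest in the arrest and had a second trough at 70 min. ECM33 (YBR078W) and PST1 (YDR055W) encode related anchored proteins, and PST1 is a known target of the cell integrity pathway. PST1 swung 2.11-fold peaking at 7.11 ± 1.90 min (adjusted p = 0.0129); by time, its log10 ratios were -0.08, 0.14, -0.05, -0.09, -0.12, -0.02, 0.17, 0.39, 0.04, -0.03, -0.01, -0.01 and 0.17. It thus stood out at 60 to 70 min and again at 10 and 120 min, while ECM33 was highest at 40 min (0.26) and peaked at 39.8 ± 2.01 min (1.55-fold, adjusted p = 0.0202). The pair had r = -0.446 over 13 arrays. PST1 dropped out without linear time (0.0660). ECM33 dropped out when a second harmonic was fitted (0.153), at a 60 min period (0.0514), at a period shortened by 5 min (0.165) and without the 40 or 50 min array (from 0.0508 to 0.102).

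TIP1 (YBR067C) and TIR1 (YER011W) belong to a family of mannoproteins known from cold shock. TIP1 was periodic (1.70-fold, peak 61.8 ± 2.51 min, adjusted p = 0.0252), but its highest values were 0.27 at 0 min and 0.23 at 10 min, and from 20 to 120 min it lay between -0.19 and 0.04. TIP1 dropped out when a second harmonic was fitted (0.138), at a period lengthened by 5 min (0.118), without the 0 and 10 min arrays together (0.0816), without linear time (0.0585) and without the 0, 30, 40, 90 or 120 min array (from 0.0557 to 0.0754). TIR1 stayed between -0.13 and 0.02 (1.17-fold, adjusted p = 0.329). YGP1 (YNL160W), a secreted glycoprotein induced as nutrients run low, did not pass over 13 arrays (2.71-fold, adjusted p = 0.0588) although its range was among the widest. The 13 values of YGP1 by time were -0.13, 0.04, -0.02, -0.04, 0.16, 0.55, 0.63, 0.28, -0.02, -0.01, 0.09, 0.21 and 0.48. The crests at 50 to 60 min and 120 min recurred (r = 0.764 over 6 matching times), while the 0 min array, at about the same point of the fitted curve, was at -0.13. YGP1 passed with array weights (0.00451), at a period lengthened by 5 min (0.0172), without the 0 and 10 min arrays together (6.44e-05) and without the 0 or 110 min array (from 0.000949 to 0.0390).

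SED1 (YDR077W), a structural protein of the stationary-phase wall, and its relative SPI1 (YER150W) were above the reference on all 13 arrays. Of the 6151 genes tested, 672 had all their values above it. Neither passed the cycle test (1.56-fold, adjusted p = 0.0679, and 1.18-fold, adjusted p = 0.273). SPI1 lay between 0.06 and 0.20. SED1 in order of time had log10 ratios of 0.29, 0.50, 0.32, 0.20, 0.18, 0.36, 0.45, 0.28, 0.32, 0.31, 0.25, 0.37 and 0.49, with crests at 10, 60 and 120 min; it passed with array weights (0.00821), at a period shortened by 5 min (0.0499) and without the 0 or 70 min array (from 0.0130 to 0.0352). CCW12 (YLR110C), a major mannoprotein of growing cells, swung 1.28-fold (adjusted p = 0.109) around an upward course described with the drift, and it passed with array weights (0.0397) and without the 70 min array (0.0408). TOS1 (YBR162C), a glucan-bound protein, was below the reference on all 13 arrays, from -0.25 at 60 min to -0.03 at 90 min (1.17-fold, adjusted p = 0.470), and passed without the 0 and 10 min arrays together (0.0469).

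The 3 genes of the set from the SUN family of secreted, wall-associated proteins were split in time. SUN4, measured but outside the set, did not pass the cycle test (1.22-fold, adjusted p = 0.740). SIM1 (YIL123W) swung 2.07-fold peaking at 36.1 ± 1.78 min (adjusted p = 0.00770), with 0.24 at 30 min as its highest value and -0.14 and -0.14 at 0 and 70 min as its lowest. UTH1 (YKR042W) swung 3.10-fold peaking at 55.5 ± 1.11 min (adjusted p = 0.000238). For UTH1 the log10 ratios from 0 to 120 min were 0.30, 0.23, -0.21, -0.09, 0.07, 0.32, 0.32, 0.11, -0.15, -0.05, 0.13, 0.24 and 0.36. Its troughs at 20 and 80 min were 60 min apart, as were its crests at 50 to 60 and 120 min (r = 0.938 over 6 matching times). UTH1 thus came later than SIM1, a difference that was not tested. NCA3 (YJL116C) followed UTH1 (r = 0.644 over the 12 arrays with both, on which its fit rests) and swung 1.39-fold (adjusted p = 0.131), and it passed with array weights (0.00730), without the 0 and 10 min arrays together (0.00257) and without the 0 min array (0.00397). SIM1 dropped out when a second harmonic was fitted (0.0591) and at a period shortened by 5 min (0.0923). MNN1 (YER001W), which adds terminal mannose to wall glycans, was periodic with a swing of 2.09-fold and a peak at 21.8 ± 1.07 min (adjusted p = 0.000282). MNN1 read, by time, -0.18, -0.001, 0.05, 0.01, -0.05, -0.27, -0.23, -0.02, 0.11, 0.06, -0.11, -0.13 and -0.20, with crests at 20 and 80 min like SVS1.

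The profiles recurred in most but not all of these genes, and spans were smaller in the second cycle about as often as over all genes. When 10 to 60 min was set against 70 to 120 min, 22 of 37 wall genes were above r = 0.5 over the 6 matching times, 59.5% against 32.1% of all genes. Of the 21 periodic wall genes 15 were, 71.4% against 84.1% of the 922 genes called periodic on the array. The highest was NCA3 at 0.952 over 5 times and the lowest PIR1 at -0.537. Among periodic genes r was low for UTR2 (-0.0465) and CWP1 (0.145). The span was smaller over 70 to 120 min for 27 of 37 wall genes, 73.0% against 70.4% of all genes, with medians over the wall genes of 0.289 and 0.220 log10 units. Among genes called periodic it was smaller for 71.4% of the wall genes and 85.8% of all. These are descriptions with no test.

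Several wall genes had other levels early in the second cycle than at the same point after release. The arrays of 10 and 70 min lie about 1 period apart, and with 1 array each the comparison has no test; it was chosen after the values were seen. At 70 min 7 of 37 wall genes were at least 1.5-fold above their 10 min value, as were 5.66% of 6083 genes with both values, and 7 were at least 1.5-fold below it, as were 6.63%. The higher ones were CIS3 (2.57-fold), EXG1 (2.52-fold), PIR1 (2.47-fold), PST1 (1.78-fold), YGP1 (1.75-fold), CHS1 (1.56-fold) and CCW12 (1.56-fold). The lower ones were CWP1 (2.77-fold), SCW10 (1.77-fold), GSC2 (1.73-fold), SED1 (1.68-fold), TIP1 (1.58-fold), SCW4 (1.54-fold) and FKS1 (1.53-fold). Of the higher ones, CIS3, EXG1, PIR1 and CCW12 were below the reference at 10 min and above it at 70 min, as was GAS1, which changed less than 1.5-fold. Of the lower ones, CWP1, SCW10, GSC2, SCW4 and FKS1 went from above the reference to below it. Over the same interval the M/G1 list mean went from -0.57 to 0.19. The part of residual arrest in these differences was not tested.

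The arrest itself was compared next, by asking how far the 0 min array lay from the curve of the 12 later arrays. At 0 min that curve has the phase of 62 min, after the CLB2 cluster peak at 47.4 min, whereas the arrested cells were in G1. A difference of phase and an effect of the arrest therefore cannot be told apart in these values. CHS3 (YBR023C) was higher in the arrest, and CIS3, YGP1 and SRL1 were lower. Thus 1 of 37 wall genes was called higher against 0.900% of the 6109 genes with a 0 min value, and 3 were called lower against 0.802%. In the same test 13 of 15 pheromone response genes were higher and none lower. The wall genes had a median difference of -0.04 log10 units against 0.00447 over all genes.

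CHS3, whose enzyme makes the extra chitin of pheromone-treated cells, stood 0.34 ± 0.06 log10 units above its later curve (SE, 1 array against 12), 2.17-fold (adjusted p = 0.00784). By time its log10 ratios were 0.26, 0.12, 0.09, -0.08, -0.07, -0.17, -0.19, -0.01, 0.06, 0.02, -0.06, -0.11 and -0.11. It was highest at 0 min, and the 0 min value did not overlap those of the 12 later arrays; no alternative run removed the call. SKT5, its activator, had the same shape with a difference of 0.15 ± 0.05 that did not pass (adjusted p = 0.146), though it did without the 10 min array (0.0459). Its values were -0.07, -0.11, -0.16, -0.24, -0.29, -0.30, -0.28, -0.20, -0.21, -0.22, -0.20, -0.26 and -0.22, the highest also at 0 min. SCW10 (difference 0.31 ± 0.09, adjusted p = 0.117), CHS1 (0.20 ± 0.11, adjusted p = 0.520) and TIP1 (0.20 ± 0.09, adjusted p = 0.406) were also above their later curves without passing. SCW10 passed with array weights (0.0313), at a period lengthened by 5 min (0.0298), with one term for the 0 and 10 min arrays (0.0217) and without the 10 min array (0.0146). With one term for the 0 and 10 min arrays 4 wall genes were called higher, among them TIP1 (adjusted p = 0.0213) and GSC2 (adjusted p = 0.0155).

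CIS3 (YJL158C), a PIR protein, lay 3.82-fold below its later curve in the arrest (-0.58 ± 0.10 log10 units, adjusted p = 0.00784). CIS3 by time read -0.48, -0.25, 0.08, 0.24, 0.31, 0.27, 0.14, 0.16, 0.06, 0.23, 0.23, 0.27 and 0.23. The values at 0 and 10 min were below the reference and the 11 later ones above it, and no alternative run removed the call. YGP1 lay 3.79-fold below (-0.58 ± 0.10, adjusted p = 0.00784), at -0.13 at 0 min, where the fitted curve is near its crests of 50 to 60 and 120 min. Away from those crests, at 20, 30, 80 and 90 min, YGP1 was at -0.02, -0.04, -0.02 and -0.01. Its call was lost at a period shortened by 5 min (0.0803). SRL1 lay 2.07-fold below (-0.32 ± 0.07, adjusted p = 0.0364), a call lost at a period lengthened by 5 min (0.0826), with linear time added (0.125) and without the 30, 40, 50, 60, 70, 90, 100, 110 or 120 min array (from 0.0506 to 0.0747). GAS1 (-0.21 ± 0.06, adjusted p = 0.117), PST1 (-0.29 ± 0.08, adjusted p = 0.113), HSP150 (-0.24 ± 0.10, adjusted p = 0.340) and CCW12 (-0.19 ± 0.07, adjusted p = 0.247) were below their later curves without passing, and GAS1 passed with array weights (0.0405) and without the 10 min array (0.0285), PST1 without the 70 min array (0.0489). NCA3 passed as lower in the arrest with linear time added (0.0229). Of the 37 wall genes 8 had their lowest value of the course on the 0 min array, 21.6% against 8.71% of all genes, and 3 had their highest there (8.11% against 11.4%). Among genes called periodic, the lowest value was at 0 min for 19.0% of the wall genes and 16.6% of all. The highest was there for 4.76% and 6.94%.

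**Figure D4:**
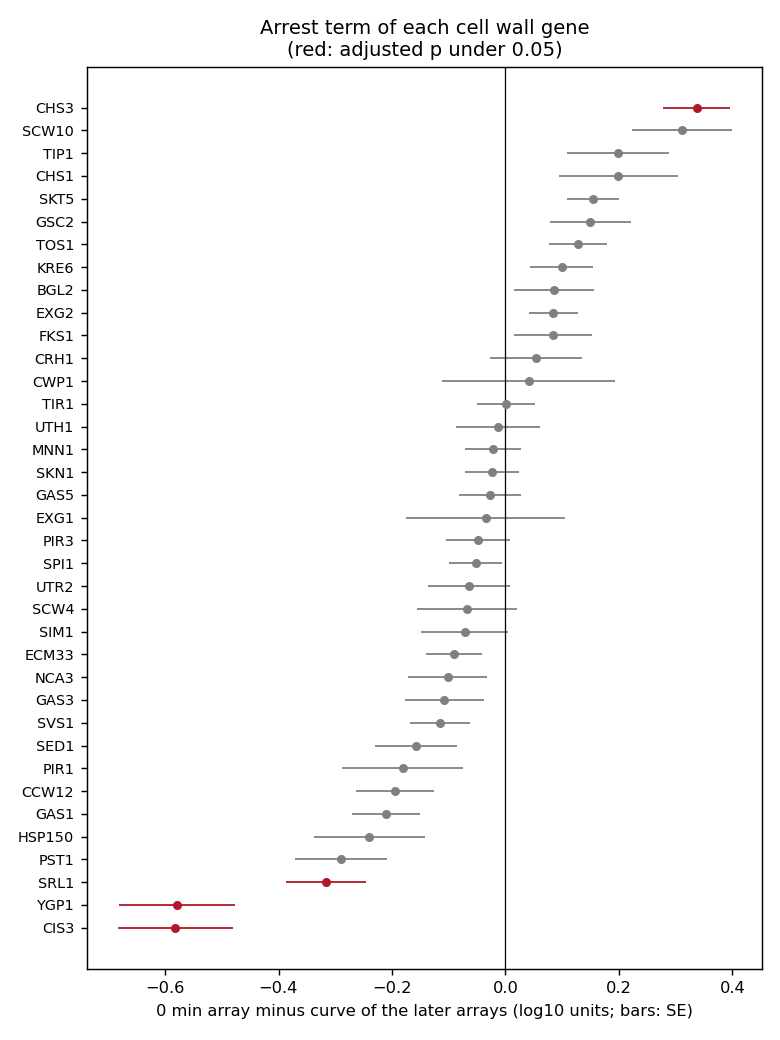
Difference of the 0 min array from the curve of the 12 later arrays (horizontal axis, log10 units, bars are SE) for each of the 37 wall genes, sorted. Red marks the 4 genes called; CHS3 is the only one above 0 among them, at 0.34, and CIS3 and YGP1 lie lowest, at -0.58 and -0.58.

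**Figure D5:**
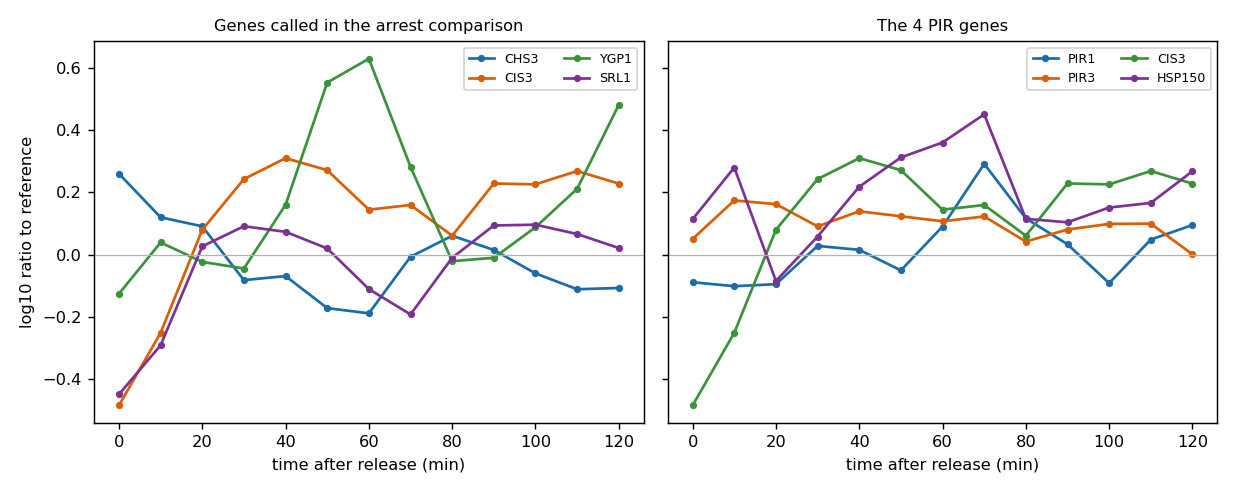
Log10 ratio to the reference (vertical axis) against time after release (horizontal axis, min), 1 array per point, for the 4 genes called in the arrest comparison (left) and the 4 PIR genes (right). CHS3 starts at 0.26 and CIS3 and SRL1 at -0.48 and -0.45; PIR1 and HSP150 are both highest at 70 min.

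Averaged over the course, few wall genes differed from the reference by 1.5-fold or more. SED1 was 2.15-fold higher (mean log10 ratio 0.33 ± 0.0194, SE, n = 13 arrays, adjusted p = 7.31e-09) and HSP150 1.56-fold higher (0.19 ± 0.0279, adjusted p = 3.38e-05). SKT5 was 1.63-fold lower (-0.21 ± 0.0146, adjusted p = 3.45e-08, below the reference on all 13 arrays) and SVS1 1.55-fold lower (-0.19 ± 0.0148, adjusted p = 9.5e-08). These 2 higher and 2 lower genes are each 5.41% of 37, against 2.63% higher and 4.19% lower over all genes tested. By adjusted p alone 18 wall genes were higher and 7 lower, where 33.5% and 31.8% of all genes also passed, so a small mean difference was common on these arrays. SVS1 no longer reached 1.5-fold without the 0, 50, 60, 110 or 120 min array (mean log10 ratio from -0.17 to -0.16), nor HSP150 without the 70 min array (mean log10 ratio 0.17). In the other direction, genes under 1.5-fold reached it under some alternatives: SCW10 (higher, 1.49-fold) in 7, YGP1 (higher, 1.48-fold) in 9, EXG1 (lower, 1.47-fold) in 4, CWP1 (lower, 1.43-fold) in 2 and CIS3 (higher, 1.30-fold) in 1. The reference was wild-type, unsynchronised and grown overnight, so strain, synchrony, growth state of the culture and dye cannot be told apart in a mean difference.

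A steady change along the course was called for CCW12, which drifted upward by 0.11 ± 0.02 log10 units per 60 min (adjusted p = 0.0198), from -0.17 at 0 min to 0.14 at 120 min. The same call was made for 1.19% of all genes upward and 1.12% downward, and no other wall gene had it in either direction; at an unadjusted p under 0.05, limma's downward slopes numbered 5 of 37. CCW12 lost it without the 0 and 10 min arrays together (0.120), the arrays on which it was lowest. GAS1 (0.09 ± 0.02, adjusted p = 0.0626) and CIS3 (0.18 ± 0.06, adjusted p = 0.153) had upward slopes that did not pass. TIP1 had a downward one (-0.11 ± 0.03, adjusted p = 0.0909), which passed at a period shortened by 5 min (0.0471). BGL2 passed downward without the 120 min array (0.0184) and NCA3 without the 0 and 10 min arrays together (0.0471) and without the 0 min array (0.0166).

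Other genes of the wall, from lists that hold none of the 37, gave between 1 and 14 cycle calls a list. In the list of mannan and protein mannosylation 14 of 31 genes were periodic, with PMI40, the enzyme that makes mannose phosphate (2.03-fold, peak 31.2 ± 1.51 min, adjusted p = 0.00153), the protein mannosyltransferase PMT3 (1.91-fold, peak 22.2 ± 1.68 min, adjusted p = 0.00752) and PSA1, which makes the activated sugar GDP-mannose (1.85-fold, peak 28.3 ± 2.34 min, adjusted p = 0.0171), widest. The chitin list had 3 of 15 periodic: CHS2, the synthase of the division septum (5.73-fold, peak 50.4 ± 1.93 min, adjusted p = 0.0149), BNI4, which tethers chitin synthase at the bud neck (2.16-fold, peak 17.3 ± 1.34 min, adjusted p = 0.00258), and QRI1, which makes the activated sugar of chitin (1.71-fold, peak 18.5 ± 1.42 min, adjusted p = 0.00315). Among other glucan genes 1 of 18 was periodic, the glucosidase gene CWH41 (1.72-fold, peak 27.9 ± 1.39 min, adjusted p = 0.000865). Cell integrity signalling had 4 of 20, with the sensor genes WSC2 (1.87-fold, peak 31.6 ± 1.54 min, adjusted p = 0.00189) and WSC4 (1.74-fold, peak 48.1 ± 2.38 min, adjusted p = 0.0494) and the kinase gene MKK1 (1.34-fold, peak 46.6 ± 2.30 min, adjusted p = 0.0471) widest. Other wall proteins had 1 of 17, EGT2, a gene of cell separation (7.06-fold, peak 8.39 ± 2.45 min, adjusted p = 0.0485). Beside 15.0% over all genes these counts are given as descriptions, and no list was tested against another. In the arrest comparison KTR2, a mannosyltransferase gene of the mannan and protein mannosylation list, was higher (0.32 ± 0.05, adjusted p = 0.00476), and no other gene of these 5 lists was called.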

How the data were processed

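Values were taken from the table deposited for the series, with 6217 rows, 6205 of them yeast genes by identifier; the 12 control rows were left out. The deposited values are log10 ratios of Cy5 (sample) over Cy3 (reference), per the labels for the dyes; the base was inferred, since 18 values sit at exactly 2 or -2 (100-fold in base 10, 4-fold in base 2), and background correction, normalisation and centring by the authors are steps for which no source used here gives a method. Array medians were -3.81e-05 to 0.00784 as deposited. Scale is thus inferred, direction follows the dyes, and the centring method is unknown. Values at the limit (none in the 37 genes) were set to missing, each array was centred on its median, and 6151 genes with at least 10 values were tested; 6065 to 6176 genes had a value per array. Spot brightness is unknown, and the number of arrays limits precision (median residual 0.0436 log10 units).

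Fits used limma 3.58.1 in R 4.3.3 (lmFit, eBayes): intercept, linear time, cosine and sine, with the period chosen between 50 and 80 min. An F test of cosine and sine called cycles, the intercept called the mean (with at least 1.5-fold), the slope called drift, and a fit without linear time but with a 0 min term called the arrest difference. P-values are two-sided and Benjamini-Hochberg adjusted over all genes, threshold 0.05. The scripts were tested on simulated data. The 37 genes and all lists were chosen with earlier results of these data known. Symbols came from RefSeq assembly R64 by locus tag (5703 of 6205 matched); 180 of 182 listed symbols were on the array. All 37 genes are named, with every value given for the 10 periodic ones of widest swing and those called in the arrest or mean comparison; SKT5 falls under the latter. Of other lists, up to 3 periodic genes of widest swing are named. Alternatives changed the harmonics, period, trend, centring, filter, weights, variance model and arrays.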

Additional observations from a re-analysis of the deposited data

How the results depend on the processing

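The 21 periodic wall genes became 11 with a second harmonic (212 genes in all, 3.45%) and 13 with a period 5 min shorter (455 in all), 29 with array weights (1559 in all), 27 without the 0 and 10 min arrays together (905 in all), and between 15 and 25 with 1 array left out. The 2 genes higher than the reference were 4 without the 0 and 10 min arrays, 18 with no minimum fold (2058 in all) and 1 with a 2-fold minimum, with a range of 2 to 4 over single arrays left out. The 2 lower ones were 4 with array weights, 7 with no minimum (1954 in all) and 0 with 2-fold, with a range of 1 to 3. Upward drift was called for 0 wall genes without the 0 and 10 min arrays. Downward drift, called for 0 by limma, was called for 1 there and with a period 5 min shorter, and for 0 to 1 over single arrays left out. The 1 gene higher in the arrest became 2 with array weights or a period 5 min longer, 4 with one term for the 0 and 10 min arrays, and 1 to 3 over single arrays left out; the 3 lower ones were 2 to 4. No called difference changed sign under an alternative. The causes were not tested. With 1 course, culture-to-culture spread is unknown, and spot brightness cannot be checked.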
